A study of Homo sapiens with 10 samples.

Results

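The RB pocket proteins, the E2F transcription factors and MYBL2 form the switch that turns cell cycle genes on and off. The genes followed here were RB1, RBL1, RBL2, E2F1, E2F2, E2F3, E2F5, E2F7, E2F8 and MYBL2. They were picked by gene symbol and are 10 of the 61587 genes in the count table. The data are bulk RNA-seq counts from RPTEC/TERT1 cells, a line of human renal proximal tubular epithelial cells (RPTECs) immortalised with telomerase. The 5 irradiated samples received 10 Gy from a caesium-137 gamma source and the 5 control samples were mock-irradiated, taken to the irradiator without exposure. RNA was collected 7 days later, and irradiated and control samples share replicate numbers 1 to 5. All samples come from a single immortalised line, so the 5 pairs are not donors. Nothing in the labels says whether the samples of a group were separate cultures, so p-values measure only the spread between these samples, which may be technical.

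In resting cells the pocket proteins RB1, RBL1 (p107) and RBL2 (p130) bind E2F factors and keep their target genes silent. E2F1, E2F2 and E2F3 are the activators of the family and bind RB1. E2F5 works with RBL1 and RBL2 as a repressor, while E2F7 and E2F8 are atypical repressors that need no pocket protein. RBL2 or RBL1 with E2F4 or E2F5 and the MuvB core forms the DREAM repressor of quiescent cells. When cells enter the cycle, cyclin-dependent kinases phosphorylate the pocket proteins, the activators are freed, and MuvB passes to MYBL2 (B-MYB), which with FOXM1 drives the genes of mitosis. In senescent cells p53 and its target CDKN1A block these kinases. Several genes of the switch are themselves E2F targets, among them E2F1, E2F2, E2F7, E2F8, RBL1 and MYBL2.

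Sequences just upstream of RefSeq start sites are shown because the letters of the E2F core stand both in members whose expression fell and in members that were not called. RefSeq windows on GRCh38.p14, from 250 bases before to 50 after a start site, were found for 8 of the 10 members, and both strands were searched for the E2F core TTNNCGC with C or G at each N. The 60 bases before the start of E2F1, E2F2, E2F3 and RBL1, the stretch from 180 to 121 bases before that of E2F7, and 30 bases around a match of MYBL2 read as follows on the strand of the gene, with matches in capitals, counting also cores whose last base is G.
E2F1, chr20:33686386-33686445, minus strand: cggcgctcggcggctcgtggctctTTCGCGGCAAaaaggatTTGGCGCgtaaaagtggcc
E2F2, chr1:23531234-23531293, minus strand: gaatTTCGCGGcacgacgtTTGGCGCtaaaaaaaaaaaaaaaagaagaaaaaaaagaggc
E2F3, chr6:20401819-20401878, plus strand: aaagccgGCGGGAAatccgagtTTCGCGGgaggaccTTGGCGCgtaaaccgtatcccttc
RBL1, chr20:37095998-37096057, minus strand: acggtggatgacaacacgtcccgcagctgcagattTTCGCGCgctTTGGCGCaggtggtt
E2F7, chr12:77065690-77065749, minus strand: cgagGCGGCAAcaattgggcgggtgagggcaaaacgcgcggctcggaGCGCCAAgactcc
MYBL2, chr20:43667064-43667093, plus strand: ccgacgcgcTTGGCGGgagatagaaaagtg

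An E2F core in any of its forms was present in 13.0% of all 35116 windows. The form TTGGCGC stood 19 bases before the start of E2F1, 41 before that of E2F2, 24 before that of E2F3 and 15 before that of RBL1. E2F1 carried a second core on the opposite strand 33 bases before its start, which overlaps a match of the looser search at 36, so its capitals run together. MYBL2 held no core as first searched. Once a last base of G was allowed it had TTGGCGG 41 bases before its RefSeq start, in a looser search chosen after the windows were seen that matched 23.7% of all windows. That start lies 95 bases inside the gene as GENCODE annotates it, so this match is within the annotated gene. In E2F7 the 2 cores lay farther out, 176 and 133 bases before the start. The start sites behind the windows of RB1 and RBL2 lie well inside the annotated genes, and these windows are not described. The cell cycle homology element TTTGAA, bound by MuvB and present in 15.2% of windows, occurred 65 bases before the start of E2F3, and the NF-Y box CCAAT, present in 34.6%, occurred 4 times in each of the E2F3 and E2F7 windows and 3 times in that of E2F1. These matches describe letters and not occupied sites.

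Depth ranged from 66269311 to 131555873 counts on genes per sample. Expression is given as TMM-normalised CPM, a gene's counts scaled to a common normalised total. Irradiated and control samples were compared within replicate pairs by the quasi-likelihood test of edgeR, with p-values adjusted by Benjamini-Hochberg over the 19006 genes that had at least 200 counts, and a gene was called at an adjusted p under 0.05. The response to irradiation was visible in every pair, as CDKN1A (p21) rose from 101.9 ± 59.3 to 698.5 ± 69.0 CPM (SD, n = 5 each). Of 8 p53 targets listed as a check, 7 rose and 0 fell, with 0 falling also at an unadjusted p under 0.05 and in DESeq2. Of all genes tested 23.9% rose and 22.7% fell. MDM2, the ubiquitin ligase that restrains p53, rose by a log2 fold change of 1.85 and the mitochondrial enzyme FDXR by 1.57, while GDF15 was not called (0.49, adjusted p = 0.189), although it was without replicate 3 (0.83, adjusted p = 0.000886). Epithelial markers were present, with 11 of 12 tubule markers above the count limit and a summed level of 3120 to 3792 CPM in control and 3309 to 4492 CPM in irradiated samples, but the endocytic receptor LRP2, a defining proximal tubule gene, had only 17 counts in all. By mean control CPM with TMM, the highest were KRT8 (1009.9), KRT19 (672.7), PAX8 (533) and EPCAM (288.7). The lowest tested were AQP1 (1.82), CUBN (4.37) and GGT1 (10.02). After irradiation CDH6 (mean 37.7 to 246.2 CPM) and KRT19 (672.7 to 1104.3) were called higher. AQP1 (1.82 to 1.19) and CDH1 (264.5 to 235.0) were called lower, and the other tested tubule markers were not called. The 6 leukocyte markers, of which 2 passed the limit, summed to 0.645 to 1.01 CPM in control and 0.86 to 1.25 in irradiated samples, the 5 endothelial markers, of which 3 passed, to 1.24 to 2.49 in control and 4.21 to 5.56 in irradiated samples, and the 6 fibroblast markers, of which 2 passed, to 16.3 to 24.6 and 28.4 to 37.6. The leukocyte marker CD3E and the endothelial marker KDR were close to 0, with 3 and 2 counts in all, and so were the fibroblast markers COL1A2 and LUM, with 23 and 2. Other markers of these lists were called higher, namely CDH5 (log2 fold change 2.48) and PECAM1 (0.72) of endothelium, DCN (2.36) and COL1A1 (0.78) of fibroblasts and CD14 (1.09) of leukocytes. Marker sums are CPM of the library total without TMM. The part of these markers in the results was not tested.

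Control replicates 1 and 3 stood apart from the other controls in genes of proliferation. The mean level of 30 G1/S targets of E2F was 3.91 and 3.78 log2 CPM in these samples, against 5.02, 4.98 and 4.94 in control replicates 2, 4 and 5. All irradiated samples lay lower still, at 3.40 to 3.74. The same held for 30 mitotic targets of MYBL2 and FOXM1, at 3.23 and 3.30 in control replicates 1 and 3, 4.51 to 4.63 in the other controls and 1.77 to 2.44 in irradiated samples. Results are therefore also given for pairs 2, 4 and 5 alone, a choice made after the data had been seen. These pairs were kept for their high control levels of such genes, which makes falls in these genes larger and more alike. Values, counts and p-values from these pairs are therefore descriptive and add no evidence of their own. Replicates 4 and 5 were the most alike in either group. The chi-square per gene between their counts was 13.1 in control and 7.68 in irradiated samples, against 47.9 to 186.6 and 35.4 to 81.5 for the other pairs of replicates.

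All 10 members passed the count limit. After irradiation 5 of them fell, 0 rose (0 also at an unadjusted p under 0.05 and in DESeq2) and 5 were not called, where 22.7% of all genes tested fell, 23.9% rose and 46.6% were called in either direction. The share of members called was thus close to that of all genes. Each of the 5 fell by more than 1 on the log2 scale, which 4.06% of all genes did. The median log2 fold change of the members was -0.58, compared with -0.0098 for all genes tested. Those that fell were MYBL2, the activators E2F1 and E2F2, the atypical repressor E2F8 and the pocket protein RBL1. Those not called were RB1, RBL2, E2F3, E2F5 and E2F7. Irradiated and control samples did not overlap for 4 members (MYBL2, E2F2, E2F8 and RBL1), as was the case for 26.7% of genes tested. In bulk RNA, fewer cycling cells and less of a transcript per cell cannot be told apart. In pairs 2, 4 and 5 alone the count was again 5 lower and 0 higher, with 24.1% of genes tested lower and 23% higher.

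**Figure D1:**
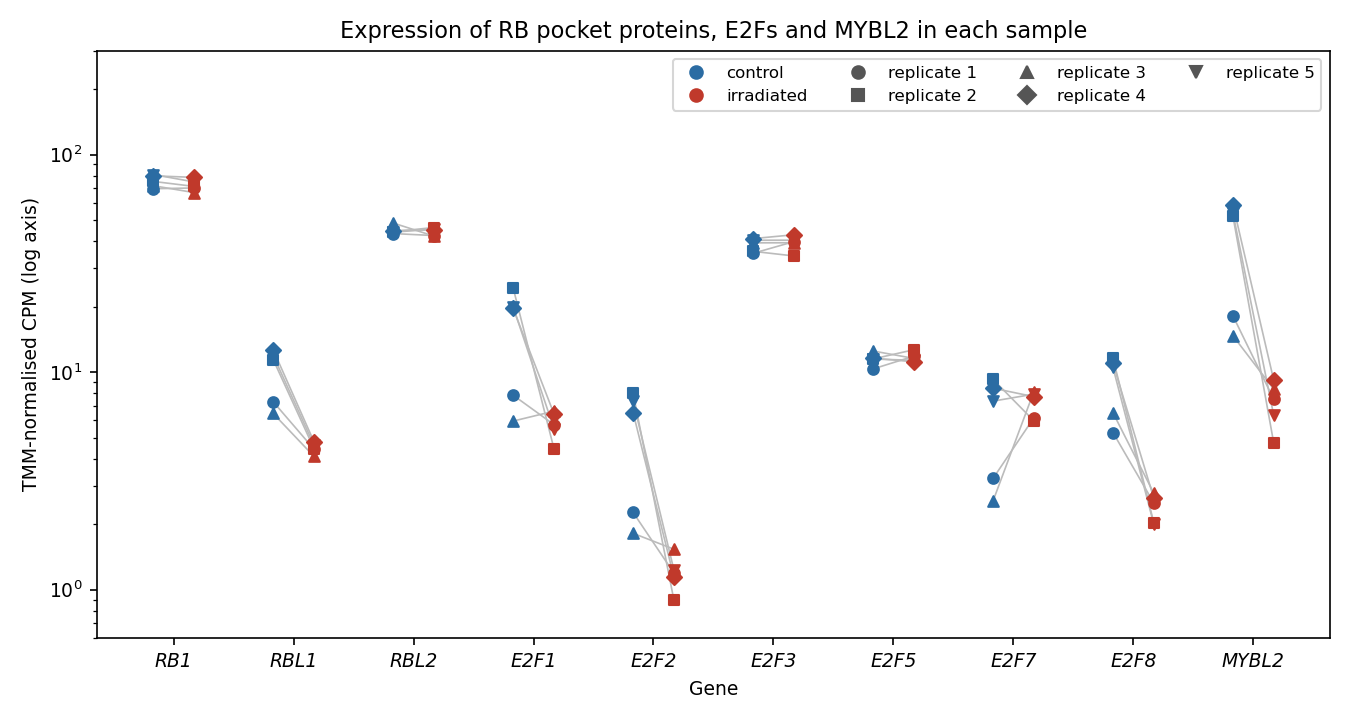
Expression of the 10 members in each sample as TMM-normalised CPM on a log axis, control in blue and irradiated in red, with a marker shape per replicate and a line joining the samples of a pair. MYBL2, E2F8, E2F2 and RBL1 lie lower in every irradiated sample than in any control, RB1, RBL2, E2F3 and E2F5 lie on nearly level lines, and the E2F7 lines cross.

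MYBL2, the MYB factor that takes over MuvB in proliferating cells, had the lowest log2 fold change of the members. On chromosome 20 from 43667019 to 43716495 of GRCh38, it stood at 18.1, 52.1, 14.7, 58.8 and 53.8 CPM in control replicates 1 to 5. The irradiated samples held 7.49, 4.72, 8.35, 9.18 and 6.32 CPM. Each irradiated sample was thus below the lowest control, and control replicates 1 and 3 were well below the other controls. The log2 fold change was -2.27 (standard error, s.e., 0.40, 95% interval -3.20 to -1.34, adjusted p = 0.0028 in edgeR), or 4.82-fold lower. In pairs 2, 4 and 5 it was -3.07 (adjusted p = 2.23e-05).

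E2F1, the founding member of the family and an activator that also drives apoptosis genes, lies on chromosome 20 from 33675477 to 33686385. Its control values were 7.83, 24.4, 5.95, 19.6 and 19.9 CPM. After irradiation they were 5.73, 4.45, 6.61, 6.43 and 5.50 CPM, so that control replicate 3 fell within the irradiated range and pair 3 moved slightly upwards (0.15 on the log2 scale). The fitted log2 fold change was -1.25 (s.e. 0.36, adjusted p = 0.0237 in edgeR). This call was lost without replicate 2 (-0.95, adjusted p = 0.0555), without replicate 4 (-1.15, 0.0796) and without replicate 5 (-1.08, 0.0908). In pairs 2, 4 and 5, where the controls were all high, the log2 fold change was -1.97 (adjusted p = 0.000139).

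E2F2, on chromosome 1 from 23506438 to 23531233, is the activator with the lowest expression. It fell from 2.26, 8.01, 1.81, 6.51 and 7.36 CPM in control replicates 1 to 5 to 1.19, 0.896, 1.53, 1.14 and 1.23 CPM in the irradiated ones. The groups did not overlap, though control replicate 3 came close to irradiated replicate 3. Its log2 fold change of -1.90 (s.e. 0.42, adjusted p = 0.00786 in edgeR) corresponds to a level 3.72-fold lower.

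E2F3, the remaining activator, did not follow them. Its expression was 35.1, 35.9, 39.3, 41.1 and 40.4 CPM in control and 39.8, 34.2, 39.3, 42.8 and 40.4 CPM in irradiated samples. The log2 fold change was 0.034 with a 95% interval of -0.077 to 0.15 (adjusted p = 0.588 in edgeR). Its sign turned with library size as the only scaling (-0.042) and with a minimum of 1 count (-0.0012), and held under the other scalings and the other filter. Control replicates 1 and 3, low for E2F1 and E2F2, were not low together for E2F3. Counts per gene do not separate the long and short E2F3 transcripts that start at different promoters, which are known to be regulated differently.

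Among the repressors, E2F8 fell and E2F5 and E2F7 were not called. E2F8, on chromosome 11 from 19224063 to 19241620, stood at 5.27, 11.6, 6.50, 10.98 and 10.5 CPM in control samples. In irradiated samples it stood at 2.50, 2.03, 2.78, 2.63 and 2.001 CPM, below every control. The log2 fold change was -1.85 (s.e. 0.23, adjusted p = 0.00056 in edgeR), a 3.61-fold lower level, and all 5 pairs moved down by at least 1.07 on the log2 scale.

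E2F7, the closest relative of E2F8 and a direct target of p53, lies on chromosome 12 from 77021248 to 77065569. Control replicates 1 to 5 held 3.24, 9.26, 2.55, 8.43 and 7.35 CPM, spread like those of E2F1 and MYBL2. The irradiated samples held 6.16, 5.97, 8.11, 7.71 and 7.92 CPM, above control replicates 1 and 3 and within or below the range of the others. Pairs 1 and 3 moved up by 0.92 and 1.66 on the log2 scale, pair 5 by 0.11, and pairs 2 and 4 moved down, by -0.63 and -0.13. The fitted log2 fold change of 0.36 (s.e. 0.31, adjusted p = 0.359 in edgeR) has a 95% interval from -0.34 to 1.07, so these data allow a change in either direction. In pairs 2, 4 and 5 the estimate was -0.23, with an interval from -0.56 to 0.10. A fall as large as that of E2F8 lies outside both intervals.

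E2F5, which pairs with RBL1 and RBL2, was the steadiest of the repressors. It lay between 10.3 and 12.5 CPM in control (median 11.5) and between 11.2 and 12.7 CPM in irradiated samples (median 11.6), with a log2 fold change of 0.029 (95% interval -0.13 to 0.19, adjusted p = 0.752 in edgeR). Exons on the opposite strand cover 18.8% of its exon length, where reads may have been left out of the counts.

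The pocket proteins divided in the same way. RBL1, the pocket protein of cycling cells, lies on chromosome 20 from 36996349 to 37095997 and stood at 7.30, 11.4, 6.45, 12.7 and 11.9 CPM in control replicates 1 to 5. In the irradiated ones it stood at 4.42, 4.45, 4.09, 4.78 and 4.61 CPM, a range far narrower than that of the controls and below all of them. It was 2.15-fold lower, with a log2 fold change of -1.11 (s.e. 0.14, adjusted p = 0.000574 in edgeR) and -1.39 in pairs 2, 4 and 5.

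RBL2, the pocket protein of quiescent cells, on chromosome 16 from 53433977 to 53491648, held 43.3, 44.2, 48.4, 44.7 and 43.99 CPM in control and 42.4, 46.2, 42.2, 45.1 and 45.4 CPM in irradiated samples. These groups overlapped almost entirely. The log2 fold change was -0.022 (95% interval -0.14 to 0.094, adjusted p = 0.741 in edgeR), with the opposite sign in pairs 2, 4 and 5 (0.023). Opposite-strand exons cover 16.4% of its exon length.

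RB1, the retinoblastoma tumour suppressor, on chromosome 13 from 48303744 to 48599436, was the most abundant member in CPM. It ranged from 69.6 to 80.9 CPM in control (median 75.2) and from 66.9 to 78.5 CPM in irradiated samples (median 71.4), lower in 4 of 5 pairs. Its log2 fold change was -0.061 (95% interval -0.15 to 0.029, adjusted p = 0.233 in edgeR). With library size as the only scaling RB1 was called lower, at -0.14 (adjusted p = 0.015), a setting that also moved the median of all genes down, by -0.076.

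Activators and repressors were set side by side as the mean log2 difference within a pair. Over E2F1, E2F2 and E2F3 this was -1.02 ± 0.78 (SD, n = 5 pairs), and over E2F5, E2F7 and E2F8 it was -0.48 ± 0.50. The activator mean was below the repressor mean in each pair, by between 0.14 (pair 3) and 0.89 (pair 2) on the log2 scale. In pairs 1 and 3 the repressor mean was slightly above 0, at 0.016 and 0.11, and the activator mean was -0.39 and -0.029. Each role held members that fell and members that were not called, and the difference between roles was not tested, since the members were chosen with earlier results known. Over the 3 pocket proteins the mean was -0.39 ± 0.10.

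**Figure D2:**
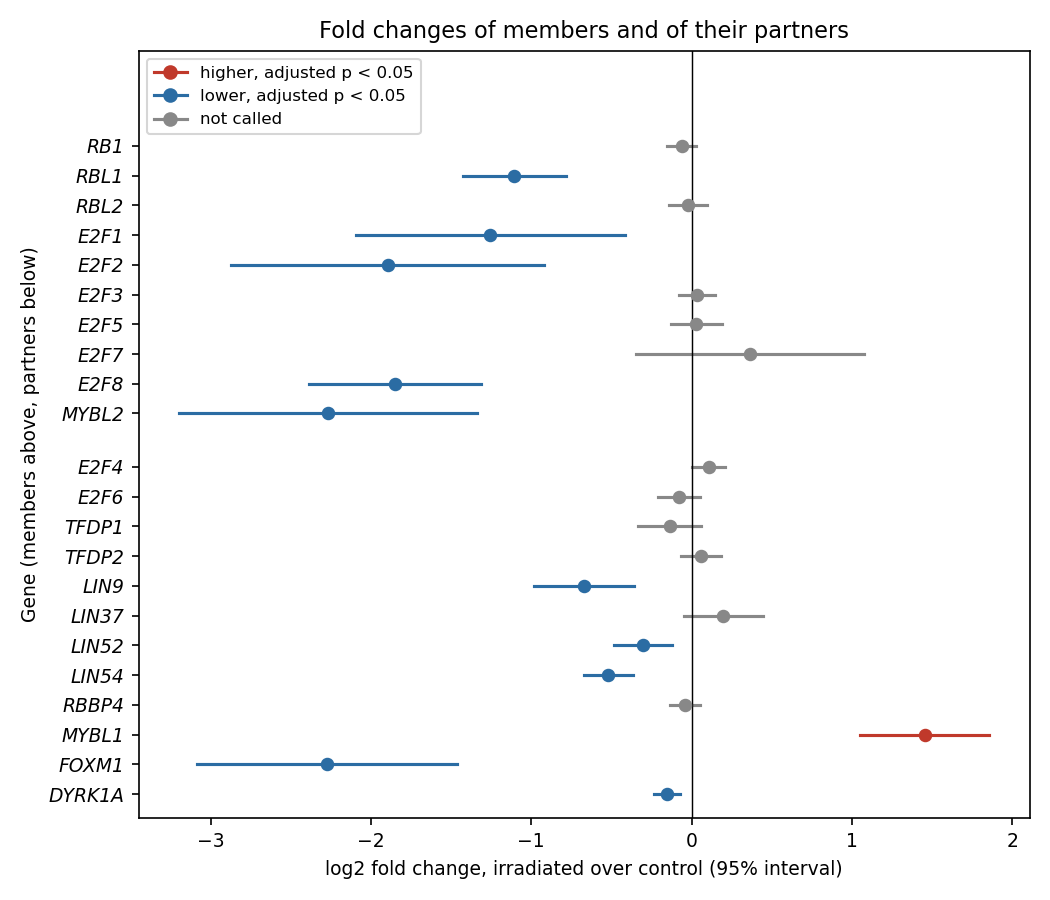
The log2 fold change of irradiated over control samples with its 95% interval, for the 10 members above and 12 partner genes below, coloured by the call of the edgeR test. Members called lower lie between -2.27 and -1.11, intervals of RB1, RBL2, E2F3 and E2F5 are narrow around 0, that of E2F7 is wide, and MYBL1 and FOXM1 lie far apart at 1.46 and -2.27.

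The members differed in their spread among controls as well as in their response. The coefficient of variation over control samples was 4.50% for RBL2, 6.47% for RB1, 6.70% for E2F5 and 6.96% for E2F3. For the other 6 it ran from 28.7% for RBL1 to 56.4% for E2F2, with E2F7 at 49.8%. In these 6 genes control replicates 1 and 3 were the lowest controls. Every member called lower belongs to the variable set, and E2F7 is the variable gene that was not called. Among irradiated samples the coefficient was between 4.13% and 24.3% for all members.

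Levels per kilobase of exon allow only a rough comparison of genes, since all annotated exons of a gene were merged. MYBL2 had the highest mean of the members in control samples, at 14.2 ± 7.7 CPM per kb (SD, n = 5), and RB1 followed at 11.7 ± 0.76. In control replicates 1 and 3, however, MYBL2 was below RB1. MYBL2 and RB1 overlap in spread, as do E2F3 at 7.39 ± 0.51 and E2F1 at 5.78 ± 3.03, and E2F1 and RBL2 at 5.54 ± 0.25. In irradiated samples RB1 led with 11.2 ± 0.70 CPM per kb, ahead of E2F3 at 7.57 ± 0.61 and RBL2 at 5.45 ± 0.22. MYBL2 was then at 2.60 ± 0.63, E2F1 at 2.14 ± 0.32, E2F5 at 1.95 ± 0.10 and E2F7 at 1.14 ± 0.16. MYBL2 and E2F1 overlapped in spread, though MYBL2 was the higher of them in each irradiated sample. RBL1 (0.751 ± 0.043), E2F8 (0.578 ± 0.086) and E2F2 (0.22 ± 0.042) were the lowest.

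Ratios within a sample do not depend on scaling, and were taken from counts per kilobase of exon. RBL2 exceeded RBL1 by 4.36, 2.84, 5.52, 2.59 and 2.71 times in control replicates 1 to 5 and by 6.92 to 7.62 times in irradiated samples. The higher ratios among controls were those of replicates 1 and 3. The sum of E2F7 and E2F8 over that of E2F1 and E2F2 was 0.406 to 0.777 in control and 0.674 to 0.792 in irradiated samples, and these ranges overlapped through control replicate 3.

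Further ratios were picked out after their values had been seen. E2F7 over E2F1 was nearly the same in all controls, at 0.177, 0.162, 0.183, 0.184 and 0.158, although E2F7 itself ranged from 2.55 to 9.26 CPM and E2F1 from 5.95 to 24.4 CPM between them. In irradiated samples the ratio was 0.459, 0.574, 0.525, 0.512 and 0.616. E2F7 over E2F8 ran from 0.258 to 0.525 in control and from 1.62 to 2.60 in irradiated samples, so that E2F7 was the less abundant atypical E2F in every control and the more abundant in every irradiated sample. MYBL1 over MYBL2 ran from 0.0846 to 0.193 in control and from 1.16 to 2.07 in irradiated samples, a change of order between these MYB factors.

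**Figure D3:**
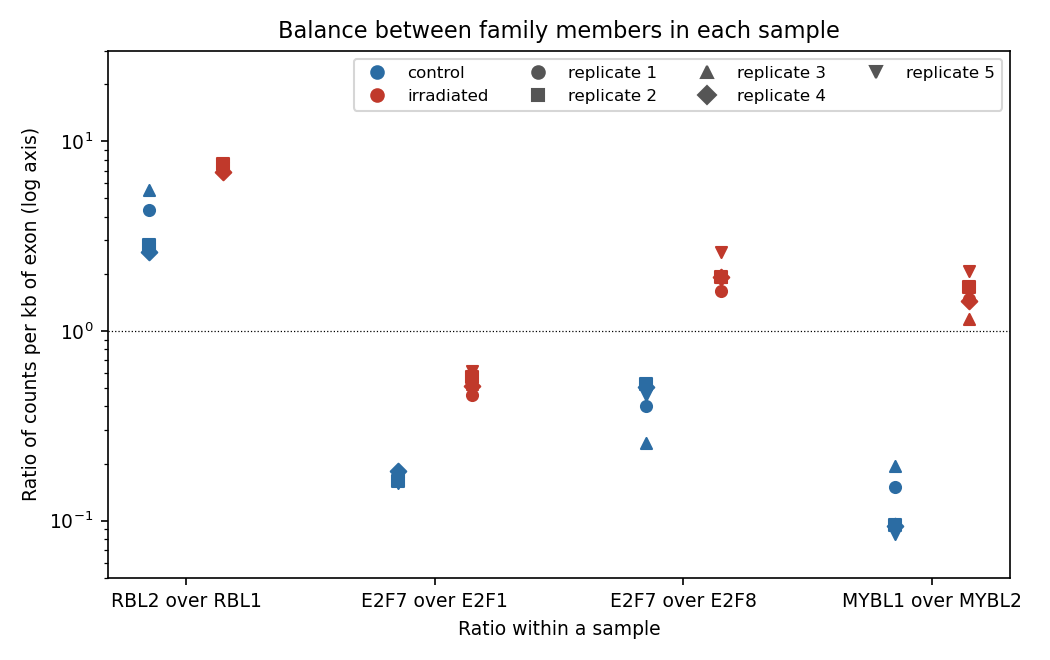
Ratios between family members within each sample, from counts per kilobase of exon on a log axis, control in blue and irradiated in red with a marker shape per replicate and a dotted line at 1. E2F7 over E2F1 forms a tight cluster of controls between 0.158 and 0.184, and E2F7 over E2F8 and MYBL1 over MYBL2 pass 1 in the irradiated samples.

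Genes that varied with a member were sought by correlating, over the 10 samples, how far each sample lay from its group mean, among 12842 genes with a mean of at least 1 log2 CPM. Values are descriptive, since control replicates 1 and 3 dominate such deviations. The genes most like MYBL2 were TRIP13 (Pearson's r = 0.996), NCAPG (0.996), BIRC5 (0.995), KNL1 (0.994) and KIFC1 (0.994), which serve spindle checkpoint, chromosome condensation and chromosome segregation and whose own log2 fold changes lay between -2.40 and -1.05. Those most like RBL2 were HYCC2 (0.9746), SCARF2 (0.973), ZNF181 (0.967), LRIG3 (0.965) and PATL1 (0.958). SCARF2 (log2 fold change -1.02) and PATL1 (-0.55) were called lower, while HYCC2, ZNF181, LRIG3 and RBL2 itself were not called. RBL2 varied little, and among controls replicate 3 alone stood apart (48.4 CPM, others 43.3 to 44.7). For E2F7, added after its values had been seen, they were the death receptor and p53 target FAS (0.992), the replication helicase factor CDC45 (0.989), CSTF2 (0.988), PAK1IP1 (0.988) and ZGRF1 (0.987). Of these, FAS rose by a log2 fold change of 2.13 and CDC45 fell by 1.59 on the log2 scale.

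Among 12 partners of the family 5 fell, 1 rose and 6 were not called, with a median log2 fold change of -0.11. The share called was close to the 46.6% of all genes. The transcription factor FOXM1, partner of MYBL2 at mitotic genes, fell by 2.27 on the log2 scale, from 23.8 ± 11.1 to 4.46 ± 0.88 CPM (SD, n = 5 each, adjusted p = 0.00146 in edgeR). Opposite-strand exons cover 15.9% of its exon length. MYBL1 (A-MYB) was the gene that rose, with control values of 7.09, 12.8, 7.40, 14.3 and 11.9 CPM and irradiated values of 28.9, 20.9, 25.3, 34.5 and 34.1 CPM. Its log2 fold change was 1.46 (s.e. 0.17, adjusted p = 0.000447 in edgeR), and the groups did not overlap.

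Subunits of MuvB moved unequally. LIN9 (-0.67, adjusted p = 0.00517), the DNA-binding subunit LIN54 (-0.52, adjusted p = 0.000624) and LIN52 (-0.30, adjusted p = 0.0149) fell in the edgeR test, the last call being lost without replicate 4 (adjusted p = 0.0624) or 5 (0.0676) and without the replicate block (0.0698). LIN37 (0.20, adjusted p = 0.16) and the histone chaperone RBBP4 (-0.040, adjusted p = 0.451) were not called. Opposite-strand exons cover 41.8% of the exon length of LIN37 and 22.8% of that of RBBP4. DYRK1A, the kinase that phosphorylates LIN52 when DREAM assembles, fell slightly (-0.15, adjusted p = 0.0102), a call lost without replicate 5 (adjusted p = 0.0553) and without the block (0.0696). The count of partners that fell was 3 without replicate 5 and 3 without the block.

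The other E2Fs and the DP subunits were not called. E2F4, the main E2F of DREAM, was higher in 5 of 5 pairs by a small amount (0.11, 95% interval 0.0032 to 0.21, adjusted p = 0.0845 in edgeR). E2F6, a repressor that acts without pocket proteins, stood at -0.078 (adjusted p = 0.282), the dimer partner TFDP1 at -0.14 (0.221) and TFDP2 at 0.059 (0.386). TFDP1 was called lower without replicate 3 (-0.22, adjusted p = 0.0307) and in pairs 2, 4 and 5 (-0.31, 0.00193). When samples were scaled by library size alone, E2F6 (-0.15, adjusted p = 0.0443) and RBBP4 (-0.12, 0.0336) were called lower, and 7 partners fell in all.

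Regulators of RB phosphorylation moved in both directions, with 6 of 16 higher, 8 lower and 2 not called. Of all genes tested 23.9% were higher and 22.7% lower. CCND2, a D-type cyclin, rose from 0.917 ± 0.326 to 8.63 ± 5.11 CPM (log2 fold change 3.14), and CCND1 from 577.9 ± 107.5 to 1797 ± 370.1 CPM (1.63), while CDKN1A rose by 2.92 (SD, n = 5 each). Inhibitors among those that fell were CDKN2C (p18), from 41.5 ± 9.8 to 8.29 ± 1.23 CPM (-2.30), CDKN1C (p57), from 99.3 ± 26.3 to 21.0 ± 6.4 CPM (-2.25), and CDKN1B (p27), from 67.7 ± 4.3 to 32.9 ± 3.4 CPM (-1.04). CDKN2D also fell (-0.54), while the inhibitors CDKN2B (1.12) and CDKN2A (0.84) rose. Among the kinases CDK6 rose (1.18), and CDK2 (-0.60) and CDK4 (-0.35) fell. The name of the list therefore covers kinases and inhibitors that each moved both ways. Opposite-strand exons cover 44.2% of the exon length of CDK4, 20.4% of CDKN2C, 16.8% of CDK2 and 15.3% of CDKN2A. CCND3 (-0.17, adjusted p = 0.0889) and CCNE1 (-0.36, adjusted p = 0.138) were not called in edgeR, and were called lower without replicate 3 (adjusted p of 0.0365 and 0.0434). They were also called lower with a minimum of 1 count (0.0260 and 0.0443), as CCND3 was with library size only (0.0219).

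Targets of the switch mostly fell. Of 30 G1/S targets of E2F, 26 fell, 0 rose (0 at an unadjusted p under 0.05 and in DESeq2) and 4 were not called. Their median log2 fold change was -0.86, and 22.7% of all genes tested fell. The largest falls were those of cyclin A2 (CCNA2, -2.06), thymidine kinase TK1 (-1.84) and the ribonucleotide reductase subunit RRM2 (-1.76). The helicase subunit MCM3 (-0.47, adjusted p = 0.0648) and thymidylate synthase TYMS (-0.35, adjusted p = 0.154) were not called. Both were called lower without replicate 3 (adjusted p of 0.0231 and 0.0155), as MCM3 was without replicate 1 (0.0404). Both were also called lower with a minimum of 1 count (0.00298 and 0.0475). MCM3 was called lower in DESeq2 as well (adjusted p = 0.0110) and with library size only (0.0354). Opposite-strand exons cover 47.9% of the exon length of TYMS. The number that fell was 16 without replicate 4, 15 without replicate 5 and 30 in pairs 2, 4 and 5. Control and irradiated samples did not overlap for 13 of the 30, against 26.7% of all genes tested.

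Of 30 mitotic targets of MYBL2 and FOXM1, 29 fell, 0 rose (0 at an unadjusted p under 0.05 and in DESeq2) and 1 was not called. Their median log2 fold change was -1.98, and 22.7% of all genes tested fell. The groups did not overlap for 27 of these targets, against 26.7% of all genes tested. The largest falls were those of the proliferation antigen MKI67, from 161.6 ± 85.4 to 24.0 ± 5.3 CPM (-2.57), the kinesin KIF20A (-2.56) and the centromeric histone CENPA (-2.47), with SD over n = 5 each. The exception was the cytokinesis factor ECT2 at 0.10 (95% interval -0.20 to 0.40, adjusted p = 0.558 in edgeR), which stood at -0.028 without replicate 1.

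**Figure D4:**
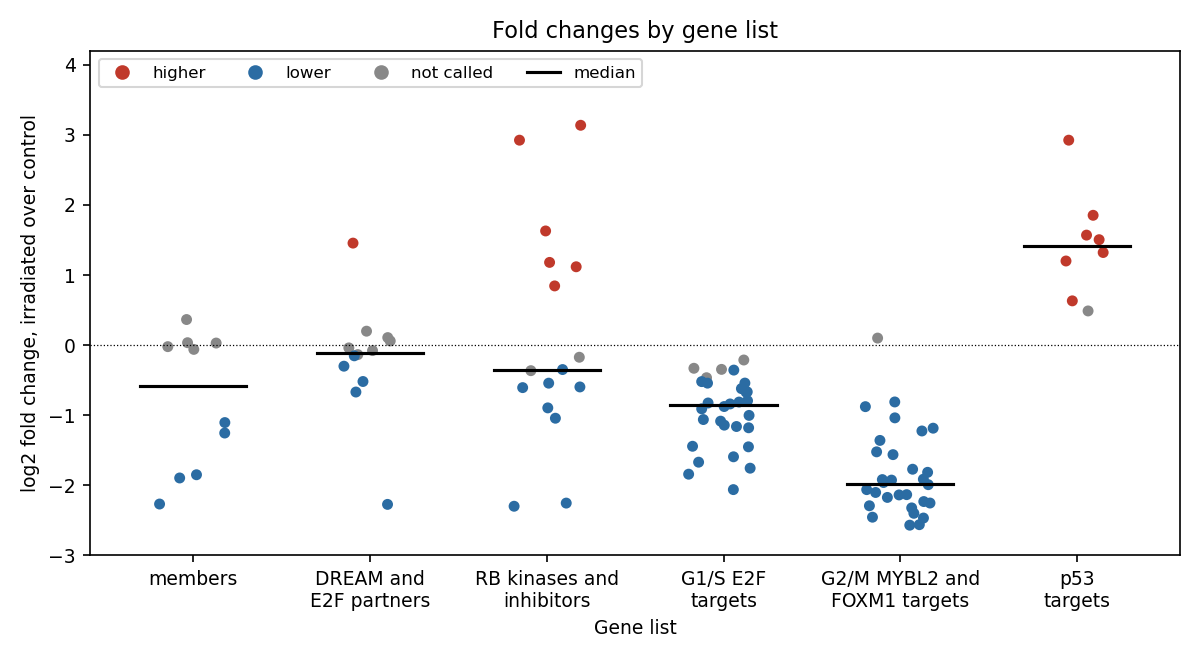
The log2 fold change of irradiated over control samples for each gene of 6 lists, coloured by the call of the edgeR test, with a bar at the list median. The members divide into a set near 0 and a set below -1, G1/S and mitotic targets lie almost wholly below 0 with medians of -0.86 and -1.98, and p53 targets lie above 0.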

How the data were processed

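The authors trimmed reads with Trim-Galore, and STAR aligned them to GRCh38 and returned a read total for every GENCODE gene, so that the deposited table holds raw counts that were not normalised. Samples were grouped by their labels. Gene symbols, coordinates and exon lengths came from GENCODE 44 (61369 of 61587 identifiers matched), and promoter windows from RefSeq. Members, lists and tests were chosen with earlier results of these data known.

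Tests ran in edgeR 4.0.16 under R 4.3.3 (TMM, glmQLFit, glmQLFTest, at least 200 counts over the 10 samples), with replicate number as a block, as in the authors' model, and Benjamini-Hochberg adjustment. The test was also run on simulated counts with few changed genes and the same response in every replicate. These lack the differences seen among the controls here, so they do not show how the test performs on these data. Replicate numbers pair the samples, since deviations from group means correlated at 0.22 to 0.51 between samples with the same number, and at -0.35 to 0.32 otherwise. Counts of any 2 replicates differed beyond sampling noise, least so for replicates 4 and 5, whose deviations also correlated across numbers (0.30 and 0.32). The standard error is the log2 fold change over the square root of F. Log2 CPM used a prior count of 2. Depth leaves precision to the spread between replicates. Alternatives were DESeq2 1.42.0, other scalings and filters, no block, and leaving out each replicate. Named genes were all members and partners, and in other lists the 3 largest calls in each direction and up to 2 genes not called. Kinases and further inhibitors of the RB list were named outside this rule. Figures were drawn with matplotlib 3.10.9.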

Additional observations from a re-analysis of the deposited data

Results flagged for a closer look

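A sample was singled out where its gap to the nearest other sample of its group, relative to the range of the group, passed Dixon's criterion of 0.71 for 5 samples. Of 84 sets of 5 values 4 passed it, and chance alone would pass about 1 in 20, or 4.2. RBL2 was high in control replicate 3 at 48.4 CPM, with the other controls between 43.3 and 44.7. Its log2 fold change was -0.022 with this replicate and 0.028 without it, not called in either fit. TFDP2 was high in irradiated replicate 2 at 110.6 CPM (others 103.5 to 105.2). CDKN1A and GDF15 were high in control replicate 3, at 207.6 CPM (others 66.7 to 80.9) and at 418.2 CPM (others 90.6 to 157.4). The mean of the 8 p53 targets, these included, was 5.64 log2 CPM in that sample. It was 4.97 to 5.16 in the other controls and 6.43 to 6.78 in irradiated samples. ZMAT3 (118.0 CPM, others 82.9 to 89.3) and BBC3 (16.4, others 7.42 to 10.6) were also highest there among controls, but MDM2 was lowest (33.4 CPM). The cause was not tested.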

How the results depend on the processing

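The count of members that fell was 5 under DESeq2, both other edgeR scalings that centre on the bulk of genes, both other filters, no replicate block and pairs 2, 4 and 5, 6 with library size only, and 4 to 5 when a replicate was left out. RBL1, E2F2, E2F8 and MYBL2 were called lower under all 13 alternatives, and no member was called higher under any. Estimates that turned sign were all uncalled. These were RBL2 (-0.036 to 0.028 when a replicate was left out, 0.023 in pairs 2, 4 and 5), E2F3 (-0.042 with library size only, -0.0012 with a minimum of 1 count, -0.00037 to 0.068 when a replicate was left out, -0.019 in pairs 2, 4 and 5), E2F5 (-0.0036 with upper quartile scaling, -0.047 with library size only, -0.0062 with a minimum of 1 count, -0.010 to 0.070 when a replicate was left out), E2F7 (-0.23 in pairs 2, 4 and 5), TFDP2 (-0.017 with library size only) and ECT2 (-0.028 to 0.23 when a replicate was left out, -0.16 in pairs 2, 4 and 5). Without the replicate block 3 of the 12 partners fell in place of 5, as LIN52 and DYRK1A were no longer called, 25 G1/S targets fell in place of 26, and the counts for the other lists were the same. Leaving out a replicate gave 3 to 6 partners and 15 to 29 G1/S targets lower, and the cause was not tested. Over all genes 51.4% of calls were higher, and 38.0% with library size only. Among the single genes named by rule 501 of 546 values kept direction and call.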
